A study of Homo sapiens with 12 samples.

Results

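The clustered protocadherin genes lie in 3 arrays on chromosome 5, named alpha, beta and gamma. Their members were taken as every row of the count table whose symbol is PCDHA, PCDHB or PCDHG followed by the digits or letters of those arrays, with 6 pseudogenes left out. This gave 53 of the 60664 genes in the table, of which 15 belong to the alpha cluster, 16 to the beta cluster and 22 to the gamma cluster. The rule itself used symbols only, but the family was selected on measured values: PCDHGA11 stood out, in an earlier reading of these data, in the difference of the drug effect between the lines. That difference is also the difference between the line contrasts in treated and control culture. All values of PCDHGA11 in these contrasts are therefore given as a description, without a test.

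The data are poly(A) RNA sequencing of 12 libraries from 2 leukaemia cell lines of the B lineage, both labelled as wild type. TOM-1 is a Philadelphia chromosome-positive line with the BCR::ABL1 fusion, and RS4;11 is a line with a KMT2A::AFF1 fusion. Each line was grown in RPMI medium with 20% serum and was then kept as control culture or given 1000 ng/ml ADI-PEG20 for 24 hours, with 3 libraries in each of the 4 groups. ADI-PEG20 is a pegylated bacterial arginine deiminase, which breaks down arginine in the medium. The labels do not say whether the replicates were separate cultures, so the tests measure the spread between these libraries, which may be technical. Each line is 1 established culture, so a difference between the lines cannot be told apart from any other property in which these cultures differ.

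Protocadherins are cadherin-like adhesion molecules at the cell surface, known best from neurons, where each cell uses a small set of the clustered genes as a surface identity. Every gene has its own promoter and its own large first exon, which encodes the extracellular part. In the alpha and gamma clusters this exon is spliced to constant exons at the end of the cluster, which all members share, while beta genes have no constant exons. The gamma cluster holds A-type and B-type genes and, at its end, the C-type genes. PCDHGC3 is the C-type gene known to be used in many tissues outside the nervous system. Promoter choice is known to involve DNA methylation, the insulator protein CTCF and the cohesin complex, which bring a promoter into contact with distant enhancers.

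In GENCODE 29 on GRCh38, the alpha cluster spans chr5:140786136-141012347, the beta cluster chr5:141051135-141249365 and the gamma cluster chr5:141330571-141512981, all on the plus strand. The shared constant exons make counts per gene uncertain in both clusters that have them. By median, 46.5% of the exonic bases of an alpha gene and 43.9% of those of a gamma gene also belong to other members, against 0% in the beta cluster. How the read counter treated reads in shared exons, and whether it used strand, are not given in the sources used here.

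The promoters are shown because each gene has its own, and most share a run of 4 letters there. Each sequence below is the 100 bases before the start of the RefSeq transcript on GRCh38.p14, on the plus strand. Capitals mark the letters CGCT, the core of the conserved element known from protocadherin promoters. The 5 genes are an A-type gene read almost only in RS4;11 cells, a B-type gene read almost only in TOM-1 cells, the gamma gene with the highest level in both lines, a beta gene with reads in both lines, and the alpha gene that held the single alpha read.
PCDHGA11, chr5:141420951-141421050: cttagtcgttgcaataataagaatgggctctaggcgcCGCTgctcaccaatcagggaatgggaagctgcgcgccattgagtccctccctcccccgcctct
PCDHGB5, chr5:141397847-141397946: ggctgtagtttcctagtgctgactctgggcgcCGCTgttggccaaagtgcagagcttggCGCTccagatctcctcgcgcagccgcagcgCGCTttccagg
PCDHGC3, chr5:141475866-141475965: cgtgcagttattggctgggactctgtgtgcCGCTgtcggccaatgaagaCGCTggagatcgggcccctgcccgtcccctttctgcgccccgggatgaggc
PCDHB13, chr5:141213819-141213918: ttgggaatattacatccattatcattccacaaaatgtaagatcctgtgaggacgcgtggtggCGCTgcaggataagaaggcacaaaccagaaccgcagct
PCDHA10, chr5:140855797-140855896: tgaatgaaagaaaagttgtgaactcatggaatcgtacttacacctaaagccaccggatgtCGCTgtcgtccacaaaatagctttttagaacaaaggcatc
The first CGCT began 63 bases before the start in PCDHGA11, 68 in PCDHGB5, 70 in PCDHGC3, 38 in PCDHB13 and 40 in PCDHA10.

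A RefSeq window of 300 bases (250 before and 50 after the start) was found for 47 members, leaving out PCDHA3, PCDHA13, PCDHB6, PCDHB11, PCDHGA12 and PCDHGC5. Each of these members gave 1 window, the most upstream, while the comparison kept every RefSeq window. CGCT stood on the gene's own strand in 46 of these 47 windows (97.9%), against 54.3% of all 35116 RefSeq promoter windows of that length. On either strand the shares were 97.9% and 70.0%. PCDHA9 was the member without it. In 43 windows (91.5%) a CGCT lay wholly within 100 to 31 bases before the start, against 20.5% of all windows. This band was set after the positions were seen. The letters stood in 12 of 13 windows of the alpha cluster, which held 1 count in all, in 14 of 14 of the beta cluster and in 20 of 20 of the gamma cluster. A match is a run of letters and not a measured binding site.

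**Figure D1:**
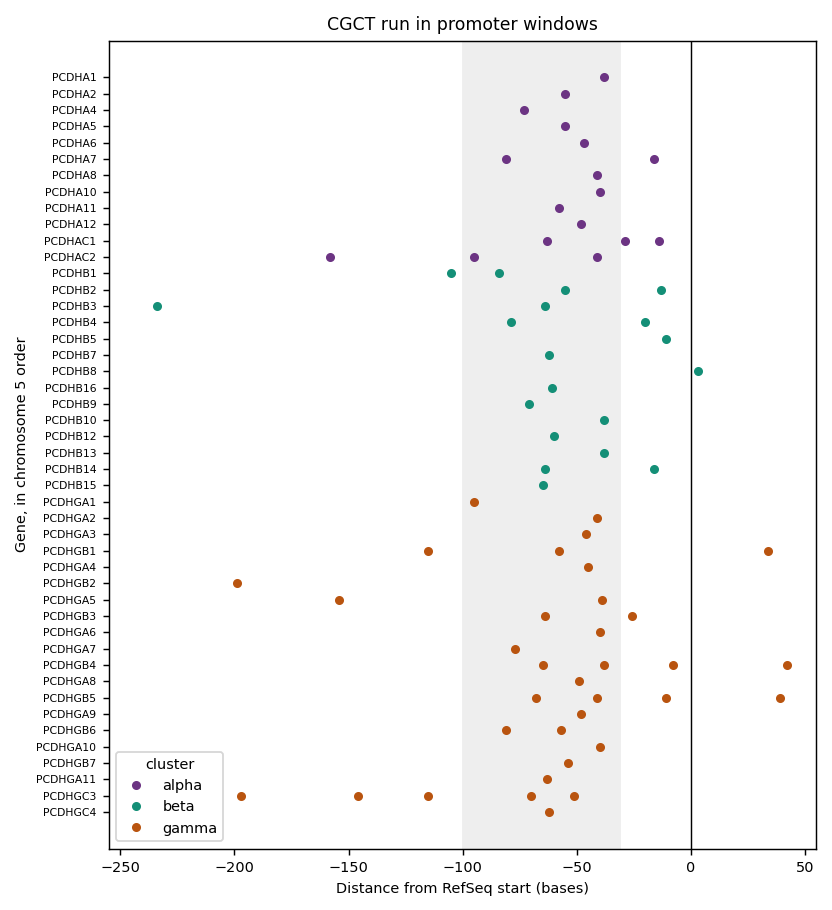
Position of each CGCT (horizontal axis, bases from the RefSeq start) in the promoter windows of 46 members (rows, in chromosome order), with 1 point per match on the gene's strand, coloured by cluster, and the band of 100 to 31 bases before the start in grey. In 43 of the 47 windows a match lies in the band, and in PCDHGB2 the only match lies far before it.

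The table held 18958144 to 35956959 counts per library, and a floor of 3 counts was worth 0.0853 to 0.166 CPM (counts scaled to library size, here with TMM factors). TOM-1 control replicate 3 stood apart. It had reads for 14963 genes, against 19857 to 21997 in the other 11 libraries, and its log CPM correlated with its replicates at 0.926 and 0.921, against at least 0.975 for every other replicate pair. It held reads of 4 of the 22 gamma members, against 17 to 19 in the others. Values without it are given beside results of the contrasts it enters. All 13 B-lineage markers had reads in both lines, although MME, the CD10 antigen, was at 0 to 0.206 CPM in RS4;11. Their sums were 7731 to 8986 CPM in TOM-1 control and 2947 to 3190 in RS4;11 control (8090 to 8362 and 3046 to 3425 under the drug). DNTT was at 3267 to 4031 CPM in TOM-1 and 65.0 to 92.8 in RS4;11. In control culture 6 markers were higher and 2 lower in TOM-1 with edgeR, against 16.2% and 18.4% of all genes. Without TOM-1 control replicate 3 these were 8 and 2, against 25.4% and 27.5%. Of 6 T or NK cell markers, NKG7 was at 23.4 to 69.1 CPM and made up nearly all of the sum in every library, CD3G was at 0, and CD3D, CD3E, CD2 and CD8A had reads only in RS4;11, at most 0.478 CPM. Of 6 myeloid markers, ELANE and S100A8 were at 0 in all libraries, and the sums were 15.1 to 26.7 CPM in TOM-1 control, 10.2 to 15.6 in TOM-1 under the drug, 15.7 to 20.8 in RS4;11 control and 13.5 to 17.02 under the drug. MPO led in TOM-1 (9.79 to 21.0 CPM) and CSF1R in RS4;11 (12.1 to 18.3 CPM), and of the 3 myeloid markers tested in control culture 1 was higher and 2 lower in TOM-1 with edgeR. The 4 erythroid markers summed to at most 0.496 CPM, with HBB at 0 in all libraries. The part of these markers in the protocadherin values was not tested.

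The 3 clusters differed in how many members had any reads. In the alpha cluster 14 of 15 genes had 0 counts in all 12 libraries, and the cluster's total was 1 count, for PCDHA10 in TOM-1 ADI-PEG20 replicate 2. In the beta cluster 5 of 16 genes had no read, 8 passed 3 counts in at least 1 library, and the cluster's total was 790 counts. All 22 gamma genes had reads and passed 3 counts in at least 1 library, with a total of 17092 counts. In all, 34 of the 53 members had a read, and 23 passed the filter on low counts (4 beta and 19 gamma). These 23 are the members that could be tested with all 12 libraries, and they passed in part through the groups in which they are high.

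Summed over the gamma cluster, TOM-1 control libraries held 42.6, 43.3 and 11.8 CPM (mean 32.6 ± 18.0, SD, n = 3), the lowest being replicate 3. TOM-1 libraries under ADI-PEG20 held 29.3, 37.0 and 37.1 CPM (34.5 ± 4.48). The RS4;11 sums were 87.5, 86.3 and 78.5 CPM in control culture (84.1 ± 4.89) and 95.2, 90.8 and 83.9 CPM under the drug (90.0 ± 5.67). Every RS4;11 library lay above every TOM-1 library. The beta sums were far lower, at 1.57 ± 0.335 CPM in TOM-1 control, 2.60 ± 0.901 under the drug, 3.20 ± 0.282 in RS4;11 control and 3.74 ± 0.592 under the drug (SD, n = 3 each). In bulk RNA, fewer cells using a gene and less RNA per cell cannot be told apart.

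**Figure D2:**
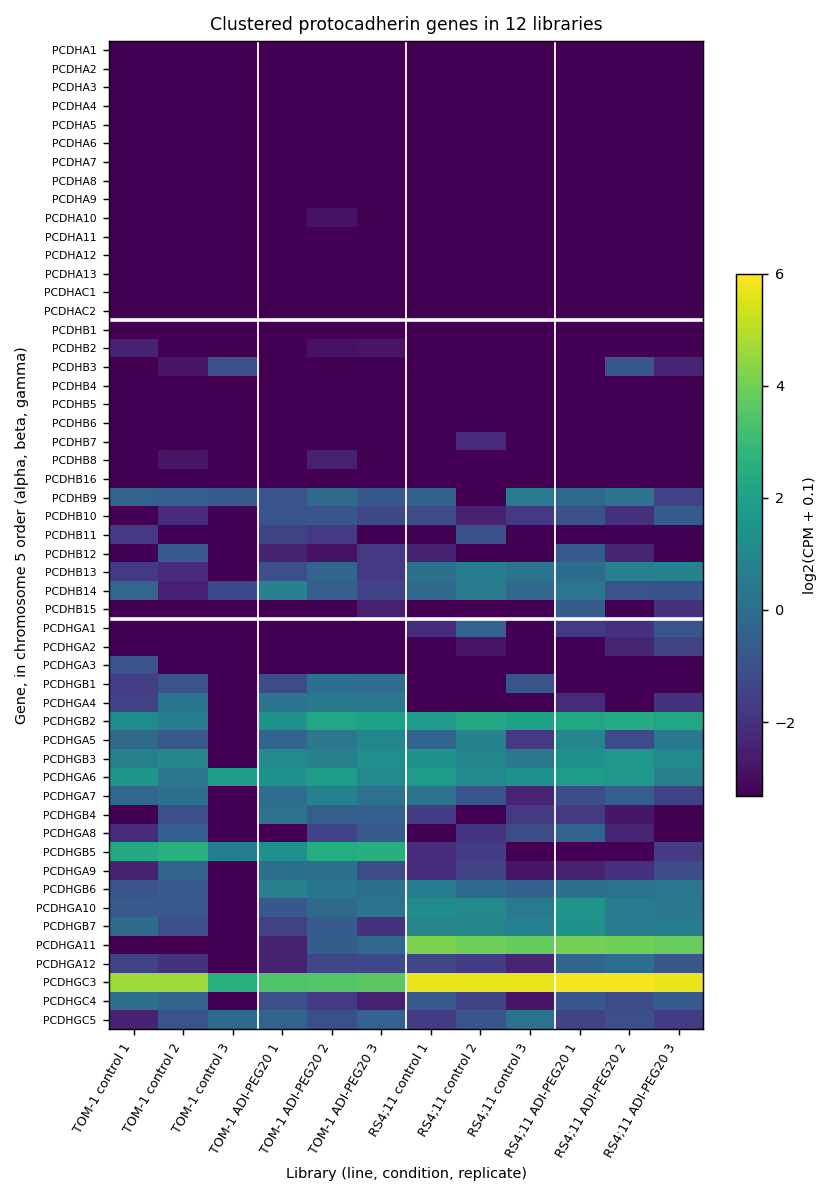
Level of the 53 clustered protocadherin genes (rows, in chromosome order) in the 12 libraries (columns), as log2 of CPM plus 0.1, with white lines between clusters and groups. The alpha rows are at 0 but for 1 count of PCDHA10, PCDHGC3 has the brightest row, and PCDHGA11 and PCDHGB5 are bright in opposite lines.

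Compared per length by group mean, the same gene led in every group and the gene after it differed between the lines. PCDHGC3 had 3.46 CPM per kb of exon in TOM-1 control, 2.11 in TOM-1 under the drug, 9.51 in RS4;11 control and 10.3 in RS4;11 under the drug, the highest level of any member in each group. By group mean the next gene in both TOM-1 groups was PCDHGB5, a B-type gene, at 0.851 and 0.932 CPM per kb. By counts in single libraries, PCDHGA6 came next instead in TOM-1 control replicate 3 and TOM-1 ADI-PEG20 replicate 1. In both RS4;11 groups the next gene was PCDHGA11, an A-type gene, at 2.71 and 2.64 CPM per kb. PCDHGB2, also B-type, came after it at 0.856 and 1.02 CPM per kb in RS4;11. In TOM-1 it was at 0.261 CPM per kb in control culture, near PCDHGA6 (0.319) and PCDHGB3 (0.241), and at 0.791 under the drug. The orders of PCDHGB2, PCDHGA6 and PCDHGB3 in TOM-1 control culture cannot be set apart, since replicate 3 held 0 counts of the first and the last. Over all libraries the beta genes with the highest levels were PCDHB13, PCDHB14 and PCDHB9, at 0.151, 0.149 and 0.144 CPM per kb, all far under the leading gamma genes.

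PCDHGC3 was lower in TOM-1 than in RS4;11. In control culture it was at 25.2, 25.2 and 6.01 CPM in TOM-1 and at 51.2, 53.0 and 50.7 CPM in RS4;11. Under ADI-PEG20 it was at 10.8, 11.2 and 12.6 CPM in TOM-1 and at 56.8, 57.5 and 53.3 CPM in RS4;11. The lines did not overlap in either condition, and the RS4;11 mean was 2.75-fold and 4.87-fold that of TOM-1. The log2 difference (TOM-1 minus RS4;11) was -1.45 (SE 0.37) in control culture and -2.28 (SE 0.38) under the drug, with edgeR quasi-likelihood adjusted p of 0.0095 and 0.000407 over all 17349 genes tested. Without TOM-1 control replicate 3 the control difference was -1.04 (SE 0.10, adjusted p = 1.18e-08).

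PCDHGA11 was read in RS4;11 and hardly in TOM-1. In RS4;11 it was at 17.9, 15.4 and 13.9 CPM in control culture and at 16.5, 15.2 and 14.3 CPM under the drug, from 279 to 418 counts a library. None of the TOM-1 control libraries had a count, and the TOM-1 libraries under the drug had 2, 15 and 19 counts (0.0856, 0.573 and 0.747 CPM). No RS4;11 library came near a TOM-1 library. The control level in RS4;11 was at least 128-fold higher, against a floor of 3 counts per library. Under the drug the RS4;11 mean was 32.7-fold that of TOM-1, with a log2 difference (TOM-1 minus RS4;11) of -5.00 (SE 0.47). No test is read from these values, since the difference that brought up the family is built from them. The TOM-1 control libraries held 214 to 1499 gamma counts in all.

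PCDHGB5 had the opposite pattern. It was at 4.83, 6.01 and 1.54 CPM in TOM-1 control and at 2.44, 5.31 and 5.82 CPM in TOM-1 under the drug. In RS4;11 it had 3, 5 and 0 counts in control culture and 0, 0 and 4 counts under the drug. Every TOM-1 library lay above every RS4;11 library. The ratio of the means was 37.0 in control culture and 66.2 under the drug, where the lower mean rests on 8 and 4 counts in all. The log2 differences were 5.11 (SE 0.95, edgeR adjusted p = 0.00124) and 6.06 (SE 1.04, adjusted p = 0.000478). The control difference was 5.48 without TOM-1 control replicate 3 (adjusted p = 7.0e-07).

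**Figure D3:**
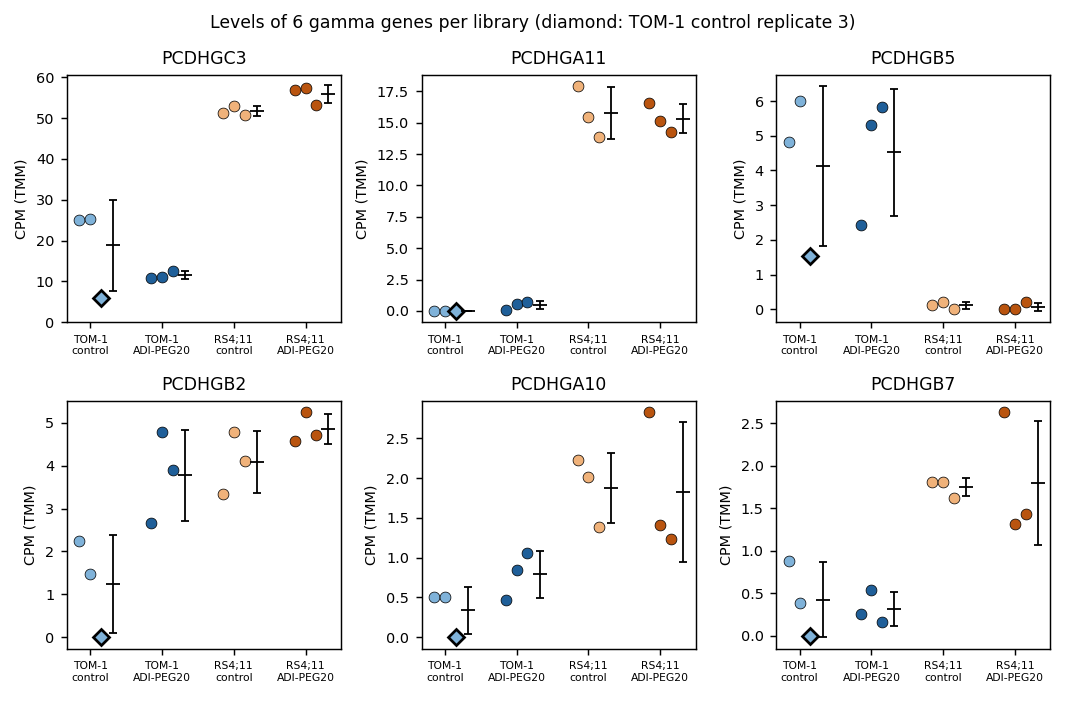
Level of 6 gamma genes in each library (points, CPM on a linear scale) by group, with the mean and SD of the 3 libraries beside them and TOM-1 control replicate 3 as a diamond. PCDHGC3 and PCDHGA11 are higher in every RS4;11 library, PCDHGB5 is higher in every TOM-1 library, and PCDHGB2 overlaps between the lines under the drug.

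Across the family, 6 of the 23 tested members (26.1%) differed between the lines in control culture at an adjusted p under 0.05, against 34.7% of all genes tested. Of these, 2 were higher in TOM-1 (PCDHGA4 and PCDHGB5) and 4 were lower (PCDHB13, PCDHGA10, PCDHGA11 and PCDHGC3), against 16.2% and 18.4% of all genes. These counts, and those under the drug, include PCDHGA11, for which no test is read. The median log2 difference of the tested members was -0.46, and that of all genes 0.01. Without TOM-1 control replicate 3, 7 of 25 were called, PCDHGB2 being the added gene, against 52.8% of all genes. They were 2 higher and 5 lower, against 25.4% and 27.5% of all genes. Under ADI-PEG20 5 of 23 were called, against 47.2% of all genes. PCDHGB1 and PCDHGB5 were higher in TOM-1 (23.1% of all genes were), and PCDHGA11, PCDHGB7 and PCDHGC3 were lower (24% of all genes were). That control library enters this contrast only through the scaling, the filter and the shared estimate of spread. Without it, 9 of 25 were called, against 62.9%. They were 3 higher (PCDHGA4, PCDHGB1 and PCDHGB5) and 6 lower (PCDHB13, PCDHGA1, PCDHGA10, PCDHGA11, PCDHGB7 and PCDHGC3), against 31.4% and 31.5% of all genes. The share of members called was under that of all genes in all 4 of these fits. Members whose libraries did not overlap between the lines numbered 9 of 23 in control culture and 11 of 23 under the drug, against 42.7% and 70.6% of all genes.

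The other members called in control culture had low counts. PCDHB13, a beta gene, was at 0.199, 0.117 and 0 CPM in TOM-1 and at 0.987, 1.40 and 1.10 CPM in RS4;11, without overlap. Its log2 difference was -3.29 (SE 0.83, edgeR adjusted p = 0.00876), and -2.82 without TOM-1 control replicate 3 (adjusted p = 0.00624). PCDHGA10 was at 0.512, 0.507 and 0 CPM in TOM-1 and at 2.23, 2.02 and 1.39 CPM in RS4;11, also without overlap. Its log2 difference was -2.39 (SE 0.79, adjusted p = 0.0338), and -1.88 without TOM-1 control replicate 3 (adjusted p = 0.0113). This call was lost when RS4;11 control replicate 1 or 2 was left out, with an adjusted p of up to 0.0902. PCDHGA4 had 9, 29 and 0 counts in TOM-1 and 0 counts in all 3 RS4;11 libraries, so the groups touched at 0. It was at least 3.50-fold higher in TOM-1, and its call (adjusted p = 0.0263) was lost without TOM-1 control replicate 2 or without any 1 of the 3 RS4;11 control libraries, with an adjusted p of up to 0.0823. The call stood when TOM-1 control replicate 3 was left out (adjusted p = 0.000985). Under ADI-PEG20 PCDHB13, PCDHGA10 and PCDHGA4 each kept their direction without overlap, but were not called with all 12 libraries. Their edgeR adjusted p were 0.0971, 0.214 and 0.0509 in that order. Without TOM-1 control replicate 3 these were 0.0346, 0.0416 and 0.00505, each a call.

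Under ADI-PEG20 the further calls were of B-type genes in opposite directions. PCDHGB1 had 8, 25 and 23 counts in TOM-1 and 0 in each RS4;11 library, which made it at least 5.25-fold higher in TOM-1 (edgeR adjusted p = 0.0256). A gene on the opposite strand overlaps 11.6% of its exonic bases, and reads of such partners cannot be told apart without strand. PCDHGB7 was at 0.257, 0.535 and 0.157 CPM in TOM-1 and at 2.63, 1.31 and 1.43 CPM in RS4;11. Its RS4;11 mean was 5.67-fold that of TOM-1, with a log2 difference of -2.48 (SE 0.88, adjusted p = 0.035). Neither gene overlapped between the lines under the drug. In control culture PCDHGB1 had 8, 11 and 0 counts in TOM-1 and 0, 0 and 9 in RS4;11, which overlapped (edgeR adjusted p = 0.782). PCDHGB7 was at 0.881, 0.390 and 0 CPM in TOM-1 control and at 1.80, 1.81 and 1.63 CPM in RS4;11 control, without overlap. Its control difference had the same direction without a call (adjusted p = 0.0958, and 0.0597 without TOM-1 control replicate 3). Of the 12 fits with 1 library left out, 5 dropped each call. PCDHGB1 lost it without TOM-1 ADI-PEG20 replicate 2 or 3 or any 1 RS4;11 ADI-PEG20 library, with an adjusted p of up to 0.071. PCDHGB7 lost it without TOM-1 ADI-PEG20 replicate 1 or 3, RS4;11 control replicate 1, or RS4;11 ADI-PEG20 replicate 1 or 3, with an adjusted p of up to 0.121.

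The remaining members with a high enough level gave no call between the lines with all 12 libraries. PCDHGB2 did not overlap between the lines in control culture, with a log2 difference of -1.66 (edgeR adjusted p = 0.0976). Without TOM-1 control replicate 3 this was -1.12 (adjusted p = 0.00741). Leaving out TOM-1 control replicate 1 also gave a call. Under ADI-PEG20 the lines overlapped for PCDHGB2 (log2 difference -0.36, adjusted p = 0.702). PCDHB14 was at 0.739, 0.078 and 0.331 CPM in TOM-1 control and at 0.816, 1.36 and 0.765 CPM in RS4;11 control (adjusted p = 0.273 with edgeR). PCDHB9 was at 0.710, 0.585 and 0.552 CPM in TOM-1 control, between the 0, 0.644 and 1.29 CPM of the RS4;11 control libraries. PCDHB10 did not pass 0.564 CPM in any library. The 11 other gamma genes that passed the filter had 70 to 771 counts each over the 12 libraries, and their highest level was 3.48 CPM, for PCDHGA6 in RS4;11 control replicate 1. PCDHGA1, PCDHGA2 and PCDHGA3 at the start of the gamma cluster, and 7 beta genes, had reads but did not pass with all 12 libraries. PCDHGA1 had 0 counts in all 6 TOM-1 libraries and 0 to 16 counts in RS4;11. It passed when TOM-1 control replicate 3 was left out, as did PCDHB12, which was not called. In that fit PCDHGA1 was called lower in TOM-1 under ADI-PEG20 (edgeR adjusted p = 0.023), at least 2.23-fold against the floor. In control culture it was not called there (adjusted p = 0.0506).

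**Figure D4:**
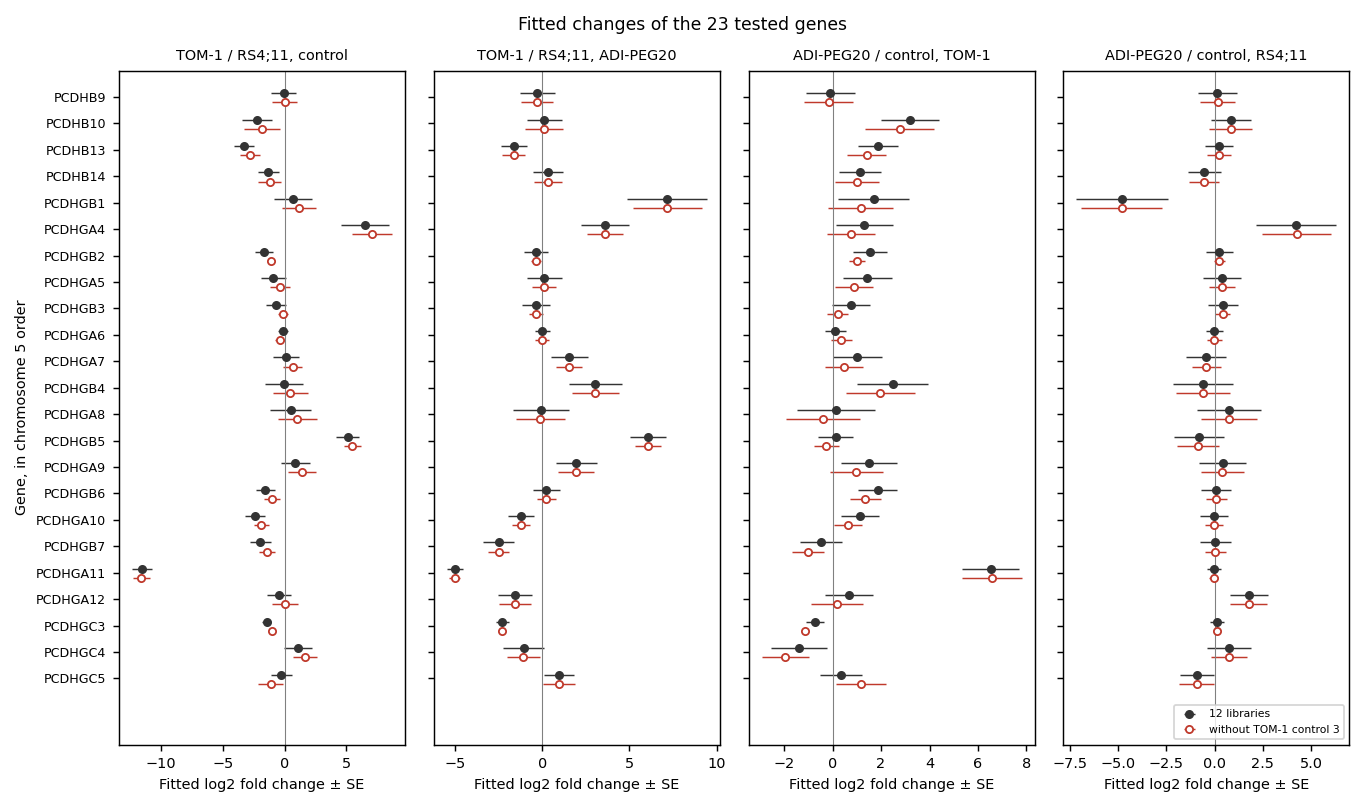
Fitted log2 fold change with its SE of the 23 tested members (rows, in chromosome order) in 4 contrasts, from all 12 libraries (filled) and without TOM-1 control replicate 3 (open). Fitted values of genes with a group at 0 counts, such as PCDHGA11, PCDHGA4 and PCDHGB1, depend on the prior count and are no bound; the RS4;11 drug panel has no called gene.

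In TOM-1 the share of gamma reads held by PCDHGC3 was lower in the treated libraries. PCDHGC3 held 59.0%, 58.3% and 50.9% of the gamma counts in TOM-1 control and 36.7%, 30.1% and 33.8% under the drug. Control replicate 3 rests on 214 gamma counts, which gives a 95% exact binomial interval of 44.0% to 57.8%, and the interval of the highest treated library is 33.1% to 40.4% (both cover counting error only). All 3 control libraries, replicate 3 included, lay above all 3 treated ones. B-type genes together held 23.9%, 25.7% and 13.1% of the gamma counts in control culture and 35.5%, 40.3% and 39.6% under the drug, with no overlap either. A-type genes held 14.5%, 13.4% and 28.5% in control culture and 24.1%, 28.1% and 24.6% under the drug, which overlapped. These shares sum to 100% with that of the C-type genes, so a change in one moves the others. On the CPM scale the B-type sums were 10.2, 11.1 and 1.55 in control culture and 10.4, 14.9 and 14.7 under the drug, which overlapped with control replicate 3 and also without it. The A-type sums were 6.195, 5.772 and 3.366 CPM in control culture and 7.063, 10.39 and 9.126 CPM under the drug. These A-type sums did not overlap, with or without control replicate 3. They include PCDHGA11, for which no test is read. In RS4;11 PCDHGC3 held 58.5% to 64.6% in control culture and 59.6% to 63.5% under the drug, and B-type genes 10.4% to 11.0% and 11.4% to 11.8%.

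**Figure D5:**
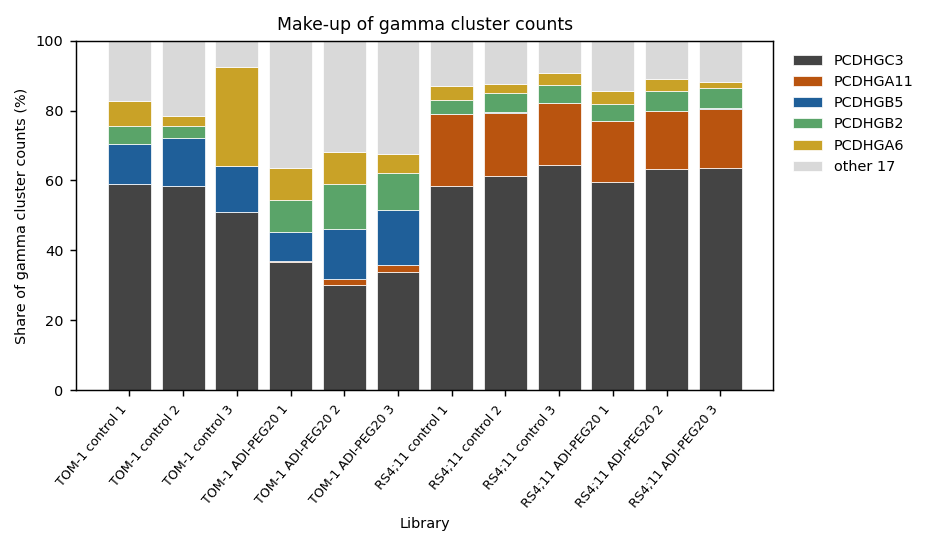
Share of the gamma cluster's counts (percent, stacked to 100) held by 5 genes and by the other 17 in each library. PCDHGC3 holds 30.1% to 36.7% in the TOM-1 libraries under ADI-PEG20 and at least 50.9% in every other library, and PCDHGA11 is the next largest share in all 6 RS4;11 libraries. In TOM-1 the next gene is PCDHGA6 in control replicate 3 and ADI-PEG20 replicate 1, and PCDHGB5 in the other libraries.

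On the CPM scale, PCDHGC3 in TOM-1 was at 25.2, 25.2 and 6.01 CPM in control culture and at 10.8, 11.2 and 12.6 CPM under the drug. The treated libraries lay under control replicates 1 and 2 and above replicate 3. With all libraries the log2 change was -0.72 (SE 0.37, edgeR adjusted p = 0.167), which is no call. Without control replicate 3 it was -1.14 (SE 0.10, adjusted p = 7.80e-09), so whether a fall is called depends on that library. PCDHGB2 was at 2.25, 1.48 and 0 CPM in control culture and at 2.65, 4.77 and 3.89 CPM under the drug, above all 3 control libraries. Its log2 change was 1.55 (SE 0.72, adjusted p = 0.123), and 1.00 without control replicate 3 (SE 0.33, adjusted p = 0.0184). PCDHGB5 had a log2 change of 0.13 (SE 0.72, adjusted p = 0.942), and its groups overlapped.

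The counts of PCDHGA11 in TOM-1, 0 in each control library and 2, 15 and 19 under the drug, are the values that brought the family up. Against the floor of 3 counts per control library the treated mean of 0.469 CPM was at least 3.82-fold higher, and it was 32.7-fold under the RS4;11 mean in the same condition. Replicate 1 of the treated libraries, at 2 counts, lay under that floor.

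Over the family, 1 of 23 tested members was called for the drug in TOM-1 (PCDHGA11, for which no test is read), against 31.9% of all genes, 15.9% in each direction. Without control replicate 3 the count was 3 of 25 (PCDHGA11 and PCDHGB2 higher, PCDHGC3 lower), against 41.6% of all genes, 21.8% higher and 19.8% lower. In both fits the share of members called was under that of all genes. The median log2 change of the tested members was 1.11, and that of all genes 0.05. Without control replicate 3 these were 0.63 and 0.00. Control replicate 3 had 0 counts for many members. A fitted change above 0 was found for 19 of 23 members with it and for 17 of 25 without it. After PCDHGA11 the smallest adjusted p was 0.0581, for PCDHB10. That gene was at 0, 0.117 and 0 CPM in control culture and at 0.428, 0.458 and 0.315 CPM under the drug, without overlap. Of the 12 fits with 1 library left out, only that without control replicate 2 called it (edgeR adjusted p = 0.0152). That library was the only control library with reads of PCDHB10. Without control replicate 3 the log2 change was 2.77 (adjusted p = 0.133), and the highest adjusted p in these fits was 0.158. Members without overlap numbered 5 of 23, against 46.2% of all genes.

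In RS4;11 none of the 23 tested members was called for the drug by edgeR, and 0% of all 17349 genes were. Every member's adjusted p was 1, the DESeq2 Wald test also called none, and 0 of the 23 had an unadjusted p under 0.05, against 1.87% of all genes. The fitted log2 changes were 0.11 for PCDHGC3 (SE 0.36), -0.04 for PCDHGA11 (SE 0.37) and 0.25 for PCDHGB2 (SE 0.69). Without TOM-1 control replicate 3 again 0 of 25 were called, against 0.317% of all genes (0.202% higher and 0.115% lower), the smallest adjusted p of a member was 0.327, and 2 of 25 had an unadjusted p under 0.05, against 12.1% of all genes. Members without overlap numbered 2 of 23, against 16.8% of all genes. The drug effects in the 2 lines rest on different libraries. The difference between them (TOM-1 minus RS4;11), given as a description, was 6.56 for PCDHGA11, -0.83 for PCDHGC3 (-1.25 without TOM-1 control replicate 3) and 1.30 for PCDHGB2 (0.76). The value of PCDHGA11 depends on the prior count and is no bound, since each TOM-1 control library had 0 counts of it.

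Genes that act on clustered protocadherin promoters, such as CTCF, cohesin and its loader, or on DNA and histone methylation, were all measured (25 of 25). In control culture 1 was higher in TOM-1 and 3 were lower, against 16.2% and 18.4% of all genes. TET1, which oxidises methylated cytosine, was at 1.95 ± 0.592 CPM in TOM-1 and at 0.268 ± 0.202 in RS4;11 (log2 difference 2.85, SE 0.73, edgeR adjusted p = 0.00922), and 3.06 without TOM-1 control replicate 3 (adjusted p = 0.00122). DNMT3B, a de novo DNA methyltransferase, was at 10.2 ± 1.97 and 17.7 ± 3.39 CPM (SD, n = 3; log2 difference -0.80, SE 0.19, adjusted p = 0.00712), and -0.65 without it (adjusted p = 0.00257). The other 2 lower genes were LRIF1, a partner of SMCHD1 (-0.44, adjusted p = 0.0186; -0.33 without that library), and the cohesin subunit SMC3 (-0.56, adjusted p = 0.0485; -0.32 without it). CTCF did not pass the test, at 159 ± 47.2 CPM in TOM-1 and 193 ± 5.81 in RS4;11 (adjusted p = 0.27). Without TOM-1 control replicate 3 the counts were 8 higher and 6 lower, against 25.4% and 27.5% of all genes.

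Under ADI-PEG20 7 genes of this list were higher and 6 lower in TOM-1 than in RS4;11 (12 and 8 without TOM-1 control replicate 3), against 23.1% and 24% of all genes (31.4% and 31.5%). REST, a repressor of neuronal genes, was at 192 ± 5.05 against 83.3 ± 3.27 CPM (log2 difference 1.21, adjusted p = 0.0018). The histone H3 lysine methyltransferase EHMT2 was at 107 ± 4.32 against 171 ± 9.35 CPM (-0.67, adjusted p = 0.000171), and the co-repressor TRIM28 was lower too (-0.96, adjusted p = 0.00361). For the drug in TOM-1, 10 rose and 3 fell with edgeR, against 15.9% of all genes in each direction, and 12 rose and 7 fell without control replicate 3, against 21.8% and 19.8%. EHMT2 fell by 0.75 on the log2 scale (SE 0.10, adjusted p = 0.00025) and TRIM28 fell by 1.17 (SE 0.22, adjusted p = 0.0021). LRIF1 rose by 0.83 (SE 0.13, adjusted p = 0.000609), and the cohesin release factor WAPL rose by 0.85 (SE 0.23, adjusted p = 0.0152). Without control replicate 3 these log2 changes were -0.70 for EHMT2, -0.75 for TRIM28, 0.70 for LRIF1 and 0.57 for WAPL, all called. In RS4;11 no gene of this list, or of the 3 lists that follow, was called by edgeR or by the DESeq2 Wald test, and 0 had an unadjusted p under 0.05 with edgeR. Without TOM-1 control replicate 3 none was called by edgeR either, and in the order of the lists 5, 3, 0 and 1 genes had an unadjusted p under 0.05. The part of these genes in the protocadherin values was not tested.

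Genes whose products process or bind clustered protocadherins gave 18 of 21 that could be tested. In control culture 4 were higher and 3 lower in TOM-1, 7 of 18 against 34.7% of all genes. Without replicate 3 the counts were 8 and 3, against 52.8%. ADAM10, the protease that sheds the extracellular part, was at 175 ± 62.0 CPM in TOM-1 and 428 ± 37.4 in RS4;11 (log2 difference -1.29, SE 0.22, edgeR adjusted p = 0.000586). CYFIP1, a subunit of the WAVE actin-regulating complex, was lower (-1.13, SE 0.17, adjusted p = 0.000211), and the kinase PTK2B, which gamma protocadherins are known to bind, was higher (0.54, SE 0.09, adjusted p = 0.000666). These differences were -1.03, -0.95 and 0.58 without TOM-1 control replicate 3, all called. Under ADI-PEG20 8 were higher and 4 lower in TOM-1, against 47.2% of all genes in either direction. FYN, a kinase of the SRC family, was at 154 ± 9.83 against 49.8 ± 3.24 CPM (log2 difference 1.63, SE 0.11, adjusted p = 3.32e-07). For the drug in TOM-1 5 rose and 4 fell, against 31.9% of all genes. FYN rose by 1.47 and PTK2B fell by 1.05 on the log2 scale (1.43 and -1.09 without control replicate 3).

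Of 12 non-clustered protocadherins, which lie outside these arrays, 2 could be tested. PCDH12, known from endothelium, was at 16.0 ± 0.562 CPM in TOM-1 control and 4.12 ± 0.866 in RS4;11 control (log2 difference 1.95, SE 0.21, edgeR adjusted p = 1.34e-05). It had 286 to 547 counts in each TOM-1 library and 69 to 128 in each RS4;11 library, which is opposite to the order of the gamma sums. PCDH18 was lower in TOM-1 under the drug (log2 difference -5.13, SE 1.19, edgeR adjusted p = 0.00381). In control culture the difference was -2.75 (adjusted p = 0.0525), and -2.255 without TOM-1 control replicate 3 (adjusted p = 0.022), which is a call. For the drug in TOM-1 its log2 change was -2.12 (adjusted p = 0.212), and -2.62 without that library (adjusted p = 0.0367). Its TOM-1 means were low, at 0.242 CPM in control culture and 0.0524 under the drug.

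Other genes of the chromosome 5 region gave 17 of 20 that could be tested. In control culture 2 were higher and 4 lower in TOM-1, against 16.2% and 18.4% of all genes. Leaving out TOM-1 control replicate 3 gave 2 and 7, against 25.4% and 27.5%. FCHSD1, 126 kb beyond the end of the gamma cluster, was at 0, 0 and 0 CPM in TOM-1 control and at 15.3 ± 1.91 CPM in RS4;11 control, an RS4;11 level at least 125-fold higher (edgeR adjusted p = 4.2e-06). HDAC3, a histone deacetylase gene between the cluster and FCHSD1, was higher in TOM-1 (log2 difference 0.73, SE 0.17, adjusted p = 0.00609). Its difference was 0.47 when TOM-1 control replicate 3 was left out (adjusted p = 8.98e-05). CYSTM1, 504 kb before the alpha cluster, was at 0.307 ± 0.415 against 8.998 ± 1.22 CPM (-4.81, adjusted p = 0.00102), and the difference was -4.38 without that library. Under ADI-PEG20 0 were higher and 10 lower in TOM-1, against 23.1% and 24% of all genes. For the drug in TOM-1, 2 rose and 10 fell with and without control replicate 3, against 15.9% of all genes in each direction (21.8% and 19.8% without it). Among those that fell were TMCO6 (fell by 1.22), HARS1 (fell by 0.85), SLC35A4 (fell by 0.94) and NDUFA2 (fell by 1.59). Without control replicate 3 these changes were -1.31, -0.78, -0.75 and -0.81, all called. The 2 called as rising were PURA, by 0.60 (edgeR adjusted p = 0.0263, and 0.38 without control replicate 3), and FCHSD1 (adjusted p = 0.0453). FCHSD1 was at 0 in each control library and at 0.343, 0 and 0.0787 CPM under the drug, against 17.6 ± 3.70 CPM in RS4;11 under the drug. Treated replicate 3 lay under its floor of 3 counts (0.118 CPM), so only treated replicate 1 passed the floor.

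Beside these results, the summed neuronal or glial markers were at 24.6 to 61.0 CPM in TOM-1 control, 159 to 167 in TOM-1 under the drug, 30.0 to 32.1 in RS4;11 control and 33.6 to 36.7 under the drug. SYT1, a vesicle protein gene, made up most of these sums, with 156.5 to 163.4 CPM in TOM-1 under the drug. GAD1 was at 1.638 to 3.016 CPM in TOM-1 and at 0.041 to 0.461 CPM in RS4;11. RBFOX3 was at 0.038 to 1.148 CPM over all libraries. SNAP25 and STMN2 were at 0 in all libraries and GFAP at 0 to 0.043 CPM. The epithelial or stromal sums were higher in RS4;11 (32.5 to 46.0 CPM) than in TOM-1 (2.70 to 11.5 CPM), through PDGFRB and COL1A1, with the other 5 of 7 markers at 0 in every library. The part of these genes in the protocadherin values was not tested.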

How the data were processed

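Raw read counts per gene were deposited by the authors as 1 table of the 12 libraries, from poly(A)-captured RNA per the labels' protocols. The submitters' processing notes name STAR, SAMtools, featureCounts and hg38. Versions, settings, annotation and strand are not given in the sources used here. The table names genes by Ensembl identifier and symbol. Positions came from GENCODE 29 (58396 of 60664 identifiers matched) and promoter windows from RefSeq (GRCh38.p14).

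Counts were tested with edgeR 4.0.16 (R 4.3.3): TMM scaling, filterByExpr (17349 genes kept), 1 mean per group over 12 libraries, quasi-likelihood F test, Benjamini-Hochberg over all genes kept, threshold 0.05. SE is the absolute log2 fold change divided by the square root of F. Depth was 18958144 to 35956959 counts per library. Folds against a group at 0 counts use a floor of 3 counts per library, and such intervals and floors cover counting error only. Levels per length are CPM per kb of exonic bases.

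The members and lists were chosen with earlier results of these data known. Values per library were given for the 4 members of each cluster with the highest level per kb, for PCDHGA11 and for each member called in a contrast with at most 6 calls. For PCDHB10 and some other members, the values printed cover only some of the 4 groups. Of each list, up to 4 called genes with the smallest p were named, with 1 gene not reported here, and genes named beyond these rules, such as CTCF, PCDHGA6, PCDHGB3, PCDHGA1, PURA, SYT1 and FCHSD1 under the drug, were chosen after their values were seen. Alternatives were DESeq2 size factors, no filter, a mean of at least 10 counts, the DESeq2 1.42.0 Wald test, a replicate block, a fit of only the 6 libraries compared, and leaving out each library. The edgeR step was tested on simulated counts.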

Additional observations from a re-analysis of the deposited data

Results flagged for a closer look

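The treated libraries lay on opposite sides of their controls for PCDHGC3 in the lines once TOM-1 control replicate 3 was left out. All 3 treated TOM-1 libraries (10.8, 11.2 and 12.6 CPM) lay under both remaining controls (25.2 and 25.2 CPM), and all 3 treated RS4;11 libraries (56.8, 57.5 and 53.3 CPM) lay above their 3 controls (51.2, 53.0 and 50.7 CPM). The fitted difference of the log2 changes (TOM-1 minus RS4;11) was -1.25 without that library and -0.83 with it. The RS4;11 values gave no call (log2 change 0.11, edgeR adjusted p = 1, and 0.684 without TOM-1 control replicate 3), and the closest libraries there were at 53.3 and 53.0 CPM. No test of the difference is given, because the family was brought up from that contrast, so it counts here as not tested.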

How the results depend on the processing

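The number of members called between the lines in control culture was 6, and it became 3 when only the 6 libraries compared were fitted (16 members tested). Under ADI-PEG20 the count was 5, and 9 in that fit. For the drug in TOM-1 it was 1, against 2 with no filter on low counts, 3 with the DESeq2 Wald test and 0 with only the 6 libraries compared, where PCDHGA11 did not pass the filter. Leaving out each of the 12 libraries in turn gave 4 to 8, 3 to 9 and 1 to 3 calls in these contrasts. It gave 0 to 0 for the drug in RS4;11. The count under ADI-PEG20 was 3 without TOM-1 ADI-PEG20 replicate 3 or without RS4;11 ADI-PEG20 replicate 1 or 3, and 9 without TOM-1 control replicate 3. For the drug in TOM-1 it was 3 without TOM-1 control replicate 2 or 3. Over all genes the share called ran from 25.7% to 52.8%, 37.4% to 62.9%, 21.7% to 41.6% and 0% to 0.317% in the same fits. In control culture the members' share was above that of all genes in 3 of 19 fits (no filter, 20.6% against 18.7%; a mean of at least 10 counts, 37.5% against 36.2%; the DESeq2 Wald test, 23.5% against 22.0%). In the other contrasts it was above it in 0 of 19. The fits of only 6 libraries called 3548 of 15451, 11149 of 15958 and 2639 of 15320 genes. Causes were not tested.

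Same-numbered libraries did not pair: 1 of 18 such pairs correlated above 0.1 in their deviations from the group means (range -0.062 to 0.145), and 4 of 12 libraries correlated best with their own number. With the replicate number as a block, the counts were 5, 4, 1 and 0 in the order above. The difference between the drug effects on PCDHGA11 was 6.53 with the block and 6.03 to 7.0 with 1 library left out. These values depend on the prior count and are no bound. Of 988 values of single members under these alternatives, 945 were counted as unchanged, 20 lost a call, 23 gained one and none reversed a call. Unchanged means the same side of the threshold. For the drug effect on PCDHGA11 in TOM-1 it means a log2 change within the SE of the main fit. Its other contrasts, for which no test is read, were counted by the threshold. PCDHGC3 and PCDHGB5 kept their calls between the lines in both conditions in all 12 fits that leave out 1 library.

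Genes at a few counts limit the rest. With all 12 libraries, the 19 members without a read and the 11 others under the filter were not detectable or not testable at this depth, which is not absence.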

Other observations

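The 6 pseudogenes of the clusters, which no comparison used, had few counts. PCDHGB8P had 0 to 11 counts a library and PCDHGB9P 0 to 16. PCDHB18P and PCDHB19P had 2 counts in 1 RS4;11 ADI-PEG20 library each, and PCDHB17P and PCDHA14 had 0 in all 12. PCDH17, a non-clustered protocadherin that did not pass the filter, had 12 counts in TOM-1 control replicate 3 and 0 in the other 11 libraries. The RefSeq promoter windows of the clustered members held a median of 7 CpG dinucleotides, against 14 over all windows.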
